A study of Mus musculus with 6 samples.

Results

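Expression of 10 smooth muscle contractile genes was measured in N18-Fms cells, a murine prostate cancer clone, before and after stimulation with CSF-1. The genes Acta2, Actg2, Myh11, Myl9, Tagln, Cnn1, Cnn2, Cald1, Tpm1 and Tpm2 were taken by name from the gene names in the array files, which list 36163 genes in all. They were represented by 17 of 55681 probes. Of the 10 genes, 9 were bright enough to be tested, which asked for a signal well above background on each array of 1 condition or more, as it did for 24648 genes in all. On all 6 arrays, 8 of them were well above background.

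Smooth muscle contracts when the regulatory light chain of myosin II is phosphorylated and the motor pulls on filaments of smooth muscle actin, which are lined by tropomyosin, caldesmon and calponin. Outside smooth muscle, several of these proteins build the stress fibers of myofibroblasts and of spread cells in culture. Many of the genes are textbook targets of the serum response factor SRF, which binds CArG boxes with the myocardin-related cofactors MRTF, and MRTF is held in the cytoplasm by unpolymerized actin, whereas TGF-beta is a classical inducer of the same program.

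N18 is a luciferase-expressing clone of the C2H line, which came from a prostate tumor of the TRAMP mouse, and N18-Fms cells (labelled N18-CFMS) were obtained from it by retroviral transduction of murine c-fms, the gene of the CSF-1 receptor, followed by cell sorting. In this population of 1 clone, 3 conditions were profiled on single-color Agilent mouse arrays, with 2 arrays each: unstimulated cells (labelled Control, treatment vehicule), cells given 100 ng/mL of CSF-1 during 24 h and cells given this dose during 48 h. All conditions had serum and dihydrotestosterone in the medium, and all carried the receptor, so that no array shows cells without it. The labelled times are used here, whereas the methods give shorter ones. By the methods, 2 independent experiments provided the RNA.

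On each array, 59305 spots other than controls were read, of which between 58.7% and 72.0% were well above background and 0 were saturated. The array of replicate 1 at 24 h lay on another slide, with another scan time, than the other 5. Over all genes tested, at 24 h 1477 were lower and 1977 higher than without CSF-1, a split that turned to 3706 lower and 1197 higher when arrays were centred on their median and to 2340 lower and 2071 higher after normexp background correction. The prostate epithelial markers Krt8 and Trp63 were well above background on all 6 arrays, whereas Cdh1 and Hoxb13 were so on 0 of 6. Of 8 markers that define smooth muscle, Myh11, Lmod1 and Kcnmb1 were at background on every array. The others were well above background on some or all: Smtn and Myocd on 6 of 6, Cnn1 on 5, Des on 4 and Synpo2 on 2.

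The mean of each of the 9 tested contractile genes was lower in CSF-1-stimulated than in unstimulated cells at both times. At 24 h, 7 of the 9 tested genes were downregulated at an adjusted p-value under 0.05 (limma, adjusted by Benjamini-Hochberg over the 24648 genes, as throughout), against 5.99% of all genes tested: Acta2, Tagln, Cnn1, Cnn2, Myl9, Tpm1 and Tpm2. At 48 h, 5 were downregulated, against 7.38% of all genes: Acta2, Tagln, Cnn1, Myl9 and Tpm1. These 5 passed at both times, as did 4.04% of all genes, and both comparisons share the 2 unstimulated arrays. No member was upregulated on the probe that stood for it. The median log2 fold change of the 9 genes was -1.10 at 24 h and -1.69 at 48 h, beside 0.037 and -0.044 for all genes tested. Both stimulated arrays lay below both unstimulated arrays for 8 of the 9 genes at 24 h (27.7% of all genes) and for 9 at 48 h (35% of all genes). At an unadjusted limma p-value under 0.05 and a change of at least 2-fold, 5 members were lower at each time. Of all genes, 1.83% were so at each time. These cutoffs are those of the study, whereas limma is not the test that its methods name. With the test of the methods, the same cutoffs gave 2 lower members at 24 h and 4 at 48 h. In a bulk RNA sample, fewer cells that express a gene and less RNA per cell cannot be told apart.

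**Figure D1:**
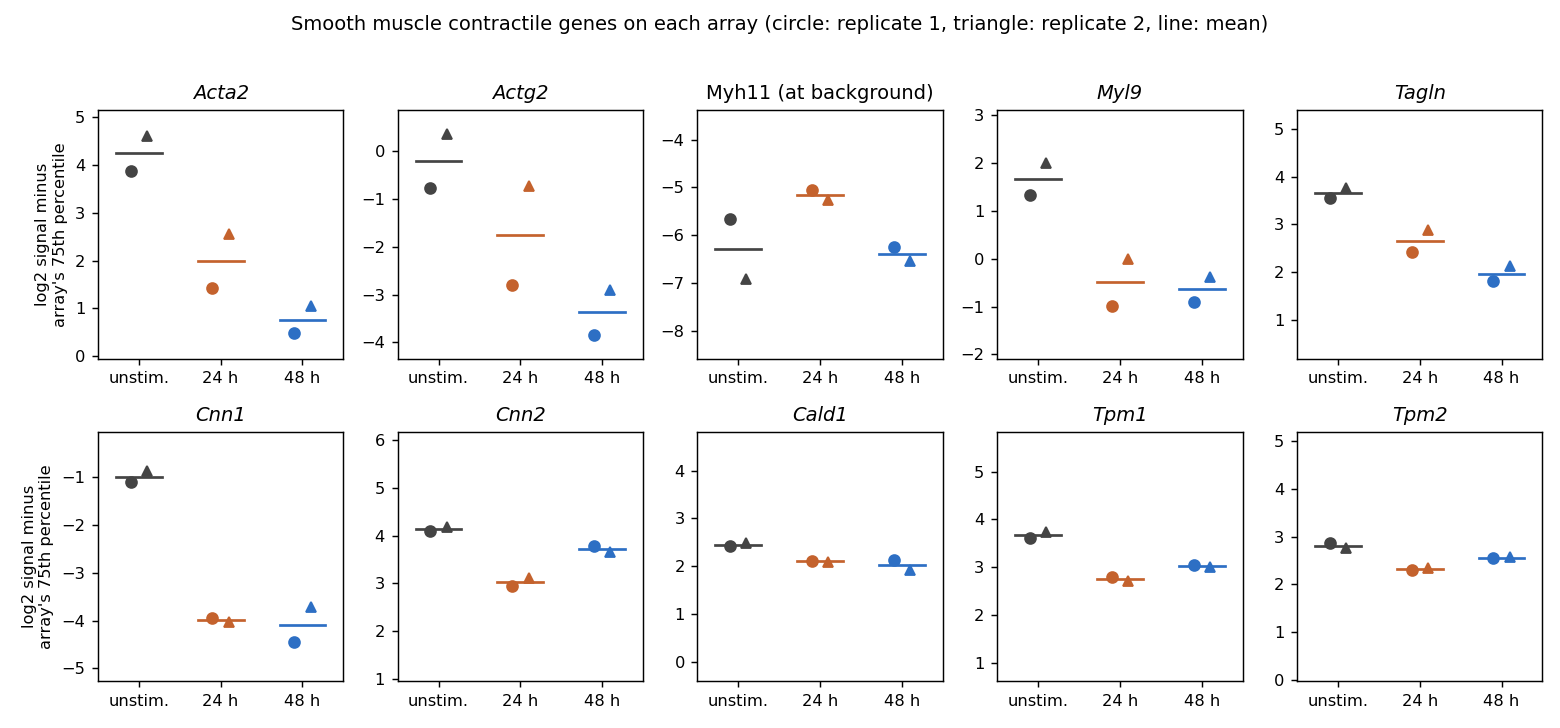
Level of the 10 contractile genes, as log2 signal minus the array's 75th percentile, on the vertical axis of each panel, for unstimulated cells and cells stimulated for 24 h and 48 h; points are arrays (circle, replicate 1; triangle, replicate 2), lines are group means, the axes differ in position, and levels of different genes are not comparable. At 48 h both arrays lay below both unstimulated arrays for all 9 genes tested, and at 24 h for all but Actg2, whereas Myh11 was at background on each array.

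Among the actins, Acta2, which encodes smooth muscle alpha-actin, the marker of myofibroblasts, fell at both times. Its probe (A_52_P420504, mm9 chr19:34316060-34316119, minus strand) was printed in 10 spots per array. In log2 units relative to the array's 75th percentile, the scale of every level of a single gene given here unless called a signal, Acta2 stood at 3.88 and 4.61 without CSF-1, at 1.42 and 2.55 after 24 h and at 0.48 and 1.05 after 48 h. The 3 conditions did not overlap, and the levels lay in the order unstimulated, 24 h, 48 h. The log2 fold change was -2.26 ± 0.46 (SE, n = 2 against 2) at 24 h, that is 4.79-fold lower, with an adjusted p of 0.0345 in limma. At 48 h it was -3.48 ± 0.46, that is 11.1-fold lower (adjusted p = 0.0120). Spots of the Acta2 probe on 1 array had an SD between 0.047 and 0.079 in log2 units, whereas the replicate arrays differed by 0.73 without CSF-1, 1.13 at 24 h and 0.56 at 48 h.

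Actg2, which encodes the gamma-actin of enteric smooth muscle, varied more between replicates and did not pass the test (A_55_P1963807, chr6:83462904-83462963, minus strand). It was measured at -0.78 and 0.36 in unstimulated cells, at -2.79 and -0.73 at 24 h, and at -3.85 and -2.90 at 48 h. The higher 24 h array lay just above the lower unstimulated array, and the 48 h arrays lay below all others. Its changes, on the log2 scale, were -1.55 ± 0.78 at 24 h (adjusted p = 0.251) and -3.17 ± 0.78 at 48 h (adjusted p = 0.0548). With 1 array left out, the Actg2 change lay between -2.58 and -0.52 at 24 h and between -3.74 and -2.60 at 48 h. After normexp background correction it was -1.19 at 24 h, and -2.20 at 48 h, where it passed the test (adjusted p = 0.0110), as it did at 48 h under 7 of 17 alternatives in all, with adjusted p between 0.0110 and 0.226 over the 17.

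For the myosin chains, Myl9, the regulatory light chain that is phosphorylated to start contraction, was downregulated at both times (A_51_P308298, chr2:156607301-156607360, plus strand). Its level was 1.34 and 1.998 in unstimulated cells, -0.98 and 0.01 at 24 h, and -0.90 and -0.38 at 48 h. All stimulated arrays lay below both unstimulated ones, and the 2 times overlapped each other. The log2 fold change was -2.15 ± 0.41 at 24 h (4.45-fold lower, adjusted p = 0.0290) and -2.31 ± 0.41 at 48 h (4.95-fold lower, adjusted p = 0.0250). Myh11, the smooth muscle myosin heavy chain and the most specific marker of the differentiated tissue among the 10, was not well above background on any array (A_55_P1988531, chr16:14202190-14202249, minus strand). Its values between -6.92 and -5.05 carry no order, and it was not tested.

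Of the calponin family, Tagln, the actin-binding protein SM22-alpha, was downregulated at both times (A_51_P450527, chr9:45738097-45738156, minus strand). It stood at 3.56 and 3.76 in unstimulated cells, at 2.42 and 2.89 at 24 h and at 1.82 and 2.12 at 48 h. As for Acta2, the 3 conditions did not overlap. Its decrease amounted to -1.0 ± 0.21 in log2 units at 24 h (2.01-fold lower, adjusted p = 0.0364) and -1.69 ± 0.21 at 48 h (3.22-fold lower, adjusted p = 0.0101).

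Cnn1, the smooth muscle calponin that restrains the myosin motor, was a dim gene that decreased at both times (A_51_P350817, chr9:21913058-21913117, plus strand). It was measured at -1.10 and -0.87 in unstimulated cells, at -3.95 and -4.02 at 24 h and at -4.45 and -3.72 at 48 h. The replicate 1 array at 48 h was not well above background, so that 1 of 2 arrays measured the gene there. On the log2 scale the change was -3.0 ± 0.26 at 24 h (8.0-fold lower, adjusted p = 0.00423) and -3.10 ± 0.26 at 48 h (8.55-fold lower, adjusted p = 0.00342). The size of the Cnn1 decrease differed after normexp background correction, which here also added an offset of 50 to the signals. Without normexp, the Cnn1 signals after CSF-1 ran from 25.3 to 45.9, below this offset. The part of the offset was not tested. After normexp the Cnn1 change was -1.70 at 24 h (adjusted p = 5.33e-05) and -1.79 at 48 h (adjusted p = 2.66e-05). Cnn1 had the largest decrease of the 9 genes at 24 h without normexp and its offset, and with them came after Acta2 at -2.25 and Myl9 at -1.96.

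Cnn2, the calponin found also in nonmuscle cells, fell at 24 h and stood nearer to its unstimulated level at 48 h. Its brighter probe (A_51_P427663, chr10:79457785-79457844, plus strand) gave 4.09 and 4.17 in unstimulated cells, 2.95 and 3.12 at 24 h and 3.79 and 3.65 at 48 h. The 48 h arrays lay between the other conditions without overlap. The log2 fold change was -1.10 ± 0.12 at 24 h (2.14-fold lower, adjusted p = 0.00806) and -0.41 ± 0.12 at 48 h (adjusted p = 0.0866). The second Cnn2 probe (A_55_P2010931) gave -0.96 and -0.34.

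Cald1 and Tpm2, which act on the thin filament, had the smallest fold changes of the 9 genes at 24 h, each gene being read from its brightest probe. Cald1 encodes caldesmon, which binds actin and tropomyosin, and neither its log2 fold change at 24 h, -0.35 ± 0.12 (adjusted p = 0.118), nor that at 48 h, -0.43 ± 0.12 (adjusted p = 0.0746), passed the test. It was measured at 2.42 and 2.48 in unstimulated cells, 2.12 and 2.08 at 24 h and 2.12 and 1.92 at 48 h (A_51_P357573, chr6:34723839-34723898, plus strand). Tpm2, the beta-tropomyosin, stood at 2.86 and 2.76, then at 2.30 and 2.34, and at 2.55 and 2.56 at 48 h (A_55_P2121408, chr4:43532262-43532321, minus strand). Its stimulated arrays lay below the unstimulated ones at both times. The change passed the test at 24 h, with -0.49 ± 0.11 (1.4-fold lower, adjusted p = 0.0410), and not at 48 h, with -0.25 ± 0.11 (adjusted p = 0.181). The second probes of Cald1 and Tpm2 gave changes whose difference from the first did not pass a test (limma diffSplice, adjusted p at or above 0.999 for both genes at both times).

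**Figure D2:**
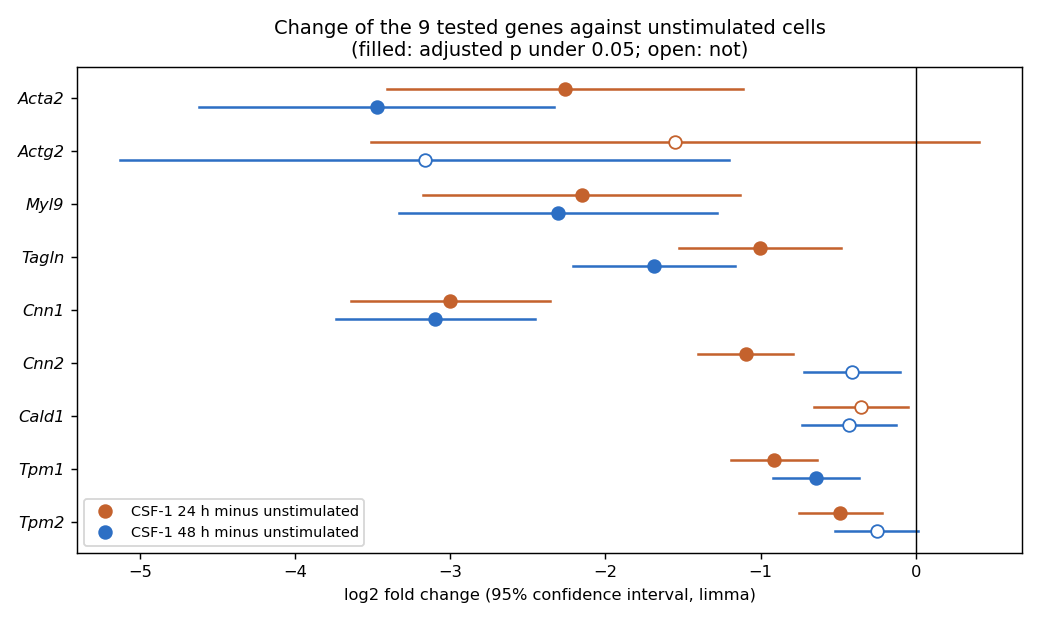
Log2 fold change against unstimulated cells (horizontal axis) of the 9 tested contractile genes, with the 95% confidence interval of limma as a bar; filled points passed an adjusted p of 0.05 and open points did not. Acta2 at -3.48, Actg2 at -3.17 and Cnn1 at -3.10 had the largest decreases at 48 h, an order in which normexp background correction put Cnn1, at -1.79, after Myl9, at -2.11, whereas the interval of Actg2 at 24 h ran from -3.51 to 0.41.

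Tpm1, which encodes alpha-tropomyosin in many isoforms made from alternative exons, was covered by 5 probes that did not change together. The probe that stood for the gene as its brightest (A_55_P2032192, mm9 chr9:66871166-66871225, minus strand) and the probe farthest upstream (A_55_P2078680, chr9:66880274-66880333) are given whole below, since their group means were lower after CSF-1, past the test for the first probe only, together with 30 bases of the stretch of 46 that the overlapping probes A_55_P2187038 (chr9:66875796-66875855) and A_55_P2187043 (chr9:66875782-66875841) have in common, since these probes were higher. The sequences are those printed in the array files, 5′ to 3′, and the capitals mark the letters of a stop codon at the end of the first probe. The upstream probe ends in such letters too, and which frame is read was not looked up in gene models.
A_55_P2032192: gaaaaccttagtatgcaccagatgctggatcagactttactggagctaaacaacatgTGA
A_55_P2078680: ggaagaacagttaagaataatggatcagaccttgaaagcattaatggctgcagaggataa
A_55_P2187038 and A_55_P2187043, shared bases: acagactgctttctattgtacagaagcaat

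The brightest Tpm1 probe, A_55_P2032192, stood at 3.61 and 3.73 in unstimulated cells, at 2.80 and 2.72 at 24 h and at 3.04 and 3.01 at 48 h. Its log2 fold change was -0.91 ± 0.11 at 24 h (1.88-fold lower, adjusted p = 0.00956) and -0.65 ± 0.11 at 48 h (adjusted p = 0.0235). The overlapping probe A_55_P2187043 went the other way, from 0.58 and 0.56 in unstimulated cells to 1.22 and 1.60 at 24 h and 1.14 and 1.41 at 48 h. For both overlapping probes, every stimulated array lay above both unstimulated ones. With each of 34814 probes tested on its own, these probes were upregulated at 24 h, by 0.79 ± 0.18 (adjusted p = 0.0463) and 0.84 ± 0.18 (adjusted p = 0.0396) in log2 units, against 7.61% of all probes. At 48 h their changes of 0.69 and 0.71 did not pass the test (adjusted p = 0.0670 and 0.0613), against 5.62% of all probes that were higher. The upstream probe changed by -0.59 and -0.57, and the remaining probe (A_55_P2187053, chr9:66872131-66872190) by -0.38 and -0.37, neither past the test at 24 h or 48 h.

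The difference between the Tpm1 probes was itself tested. Across the 6553 genes with several probes, the gene-level F test of diffSplice gave Tpm1 an adjusted p of 0.00154 at 24 h and 0.00423 at 48 h, a test that 2.27% and 1.18% of these genes passed. The test takes the probes of a gene as independent, although all were read from the same arrays and the overlapping Tpm1 probes share 46 bases. Between 24 h and 48 h the Tpm1 probes showed no difference in their change that passed this test (adjusted p above 0.999, with 0.0458% of genes passing). The brightest Tpm1 probe shared 0 of its 4 listed transcripts with the overlapping pair, whose 4 listed transcripts were the same for both. The upstream probe, whose mean was lower, shared 1 of its 4 with the brightest probe and 1 with each of the overlapping probes, which were higher. The files list at most 4 transcripts per probe, so that further shared isoforms cannot be seen. When the probes of each gene were averaged instead, the log2 fold change of Tpm1 was -0.048 at 24 h and -0.039 at 48 h.

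**Figure D3:**
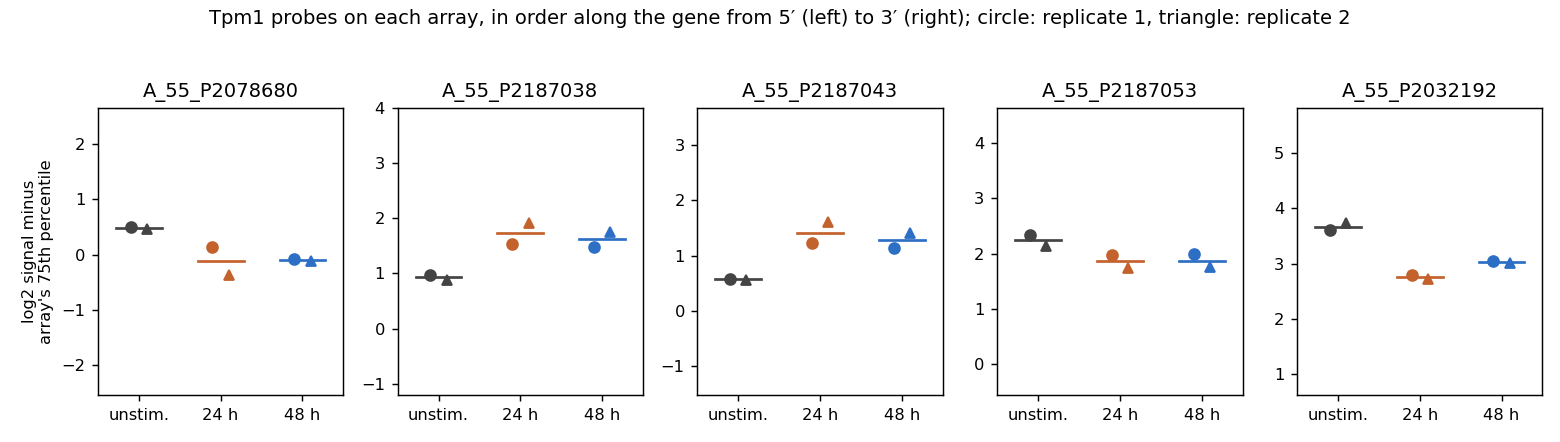
Level of the 5 Tpm1 probes, as log2 signal minus the array's 75th percentile, with 1 panel per probe, ordered along the gene from 5′ to 3′; circles are replicate 1, triangles replicate 2, and lines group means. The overlapping probes A_55_P2187038 and A_55_P2187043 were higher on all 4 stimulated arrays, whereas the other 3 probes had lower group means after stimulation.

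Probes of related genes were compared with each other by sequence. The longest run of identical bases between a probe of a contractile gene and any probe of another gene of its family was 12 of 60 bases among the tropomyosins, 8 among the calponins and 7 among the actins, here with the skeletal, cardiac and cytoplasmic actins included. Whether a probe matches the transcript of a related gene was not tested.

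Promoter windows from 250 bases before to 50 bases after the transcription start (RefSeq, GRCm38.p6) were available for 7 of the 10 genes, in 8 windows, and they were searched on both strands for the CArG box, the site bound by SRF. It was present in the windows of Myl9 and Cnn2, and 1.63% of all 32851 promoter windows held it. The 250 bases before the start are shown for both genes, with the CArG box in capitals. In Myl9 (chr2:156775214-156775463, plus strand) the box began at position -161, and in Cnn2 (chr10:79988350-79988599, plus strand) at -56.
Myl9: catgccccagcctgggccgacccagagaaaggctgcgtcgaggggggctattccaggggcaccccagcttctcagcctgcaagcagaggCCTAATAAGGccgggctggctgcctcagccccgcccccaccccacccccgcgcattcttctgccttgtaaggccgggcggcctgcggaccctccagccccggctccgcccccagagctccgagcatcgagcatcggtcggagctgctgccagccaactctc
Cnn2: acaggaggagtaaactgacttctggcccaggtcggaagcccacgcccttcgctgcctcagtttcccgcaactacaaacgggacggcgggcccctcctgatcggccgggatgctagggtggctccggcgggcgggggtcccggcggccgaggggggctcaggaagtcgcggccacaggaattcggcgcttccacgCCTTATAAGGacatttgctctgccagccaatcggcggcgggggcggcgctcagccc
The downregulated genes Acta2, Cnn1, Tpm1 and Tpm2 had no CArG box of the searched form within their windows, which says only that these letters are not there. The TATA box, searched as TATAAA, was found in 1 of the 8 windows, that of Cald1, against 13.6% of all windows, and the GC box, GGGCGG, in 5 windows, against 35.7%.

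Cells stimulated for 48 h were next compared directly with cells stimulated for 24 h. At an adjusted p-value under 0.05, 0 of the 9 genes differed, against 0% of all genes in either direction. At an unadjusted p-value under 0.05, limma counted 3 members, Acta2, Tagln and Cnn2, against 13.6% of all genes. Acta2 was 1.22 ± 0.46 log2 units lower at 48 h, that is 2.32-fold (95% confidence interval of the log2 fold change -2.36 to -0.070, adjusted p = 0.341), and alone also passed the 2-fold threshold, as 1.4% of all genes did toward lower and 0.868% toward higher expression. Tagln differed by -0.68 ± 0.21 (adjusted p = 0.263). Cnn2 differed in the opposite direction, by 0.69 ± 0.12 (interval 0.38 to 0.99, adjusted p = 0.146), and after normexp background correction it passed the test (adjusted p = 0.0390). For Cnn1 the difference was -0.096 (interval -0.74 to 0.55) and for Myl9 -0.15 (interval -1.17 to 0.87), and both turned sign under median centring.

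Acta2, Actg2, Myl9 and Tagln also shared a pattern across the replicate numbers. In each of the 3 conditions the array of replicate 2 was higher than that of replicate 1 for these 4 genes, as it was for 14.7% of all genes tested. For Acta2, Actg2 and Myl9 the gap exceeded 0.5 log2 units every time, as it did for 0.235% of all genes. The gap of Actg2 was the widest, 1.14 without CSF-1, 2.06 at 24 h and 0.95 at 48 h, and that of Tagln was 0.20, 0.47 and 0.30. The labels do not say whether a replicate number marks the same experiment in each condition. Across the 6 arrays, which share the difference between conditions, Acta2 and Tagln had a Pearson correlation of 0.996, and among 12309 genes that matched a RefSeq symbol and were well above background on all arrays the genes most like Acta2 were Poc5, Gm13238, Larp4, Tagln and Ddx51. Those most like Tagln were Pwp1, Poc5, Rrm1, Mrps18b and Acta2. The non-contractile genes among them changed less, between -0.20 and -0.42 at 24 h and between -0.30 and -0.72 at 48 h.

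Around the contractile genes, the regulators of the SRF program were examined. Of 17 tested genes of SRF, the myocardin family and their partners, 2 were lower and 2 higher at 24 h, and 2 were lower and 1 higher at 48 h, against 5.99% of all genes lower and 8.02% higher at 24 h, and 7.38% lower and 6.58% higher at 48 h. Srf itself fell from 2.72 and 2.68 in unstimulated cells to 2.03 and 2.14 at 24 h and 1.97 and 1.72 at 48 h. All stimulated arrays lay below the unstimulated ones, and the log2 fold change was -0.62 ± 0.13 (adjusted p = 0.0397) and then -0.86 ± 0.13 (adjusted p = 0.0183). Tead1, a DNA-binding partner of the YAP coactivator, fell by 0.93 and 0.87, and Klf5, a zinc finger factor of smooth muscle and epithelium, rose by 0.75 and 0.79 in log2 units. Myocd, the smooth muscle cofactor myocardin, was well above background on all arrays, and its changes of 0.62 and 0.43 did not pass the test (adjusted p = 0.135 and 0.278).

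Of 22 target genes of MRTF and SRF other than the contractile genes, with Srf counted again among them, 8 were downregulated at 24 h, 6 at 48 h and 4 at both, against 5.99%, 7.38% and 4.04% of all genes, and 0 were upregulated at either time. The median of the 22 log2 fold changes was -0.42 and then -0.20. Ankrd1, a nuclear and sarcomeric stretch-responsive protein, fell by 1.51 and 1.62, Amotl2, a junctional angiomotin, by 1.26 and 1.38, and Nexn, the actin-binding nexilin, by 1.29 and 1.08. The matricellular genes Ccn1 and Ccn2, chosen after their values were seen, passed the test at 48 h, with -2.13 (adjusted p = 0.0357) and -2.10 (adjusted p = 0.0482), and not at 24 h. The list also holds the housekeeping actin genes Actb and Actg1, which changed by -0.16 and -0.32 at 24 h without passing the test. Myh9, Flna, Zyx, Tpm3 and Tpm4 did not pass at either time. Which factor regulated the genes of this list in these cells was not tested.

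**Figure D4:**
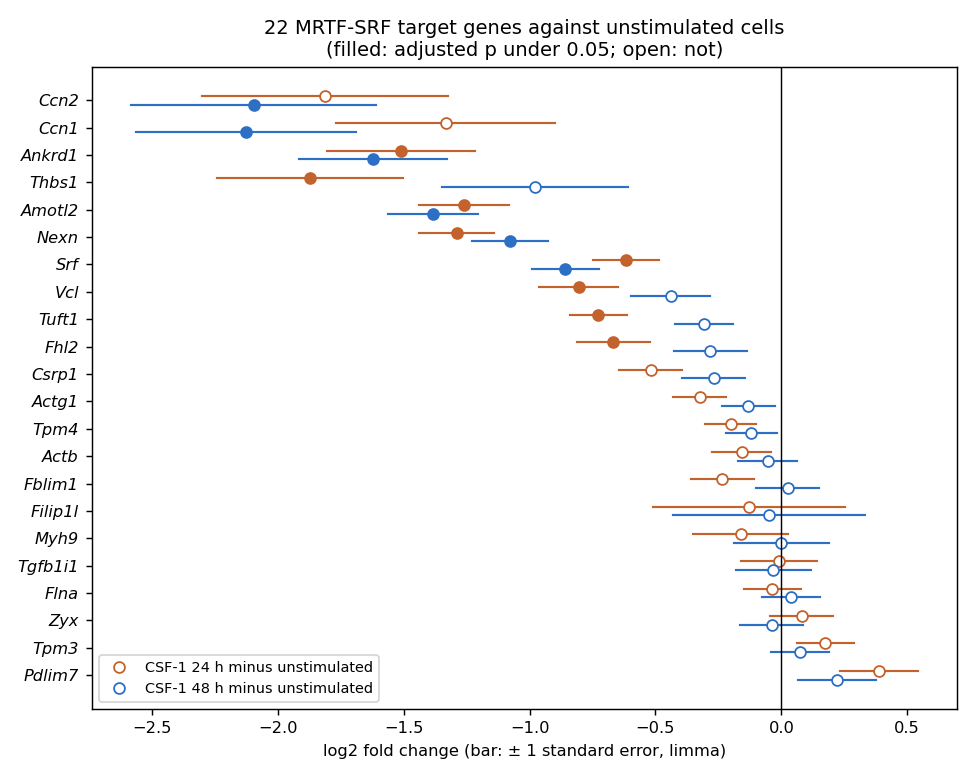
Log2 fold change against unstimulated cells (horizontal axis) of 22 MRTF and SRF target genes other than the contractile genes, with bars of 1 standard error from limma; filled points passed an adjusted p of 0.05. At 24 h 8 genes and at 48 h 6 genes were filled, all of them on the side of lower expression.

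Other cytoskeletal genes were counted in the same way. Of 21 tested genes among 30 other smooth muscle cytoskeletal genes, 4 were lower and 1 higher at 24 h, and 2 were lower at 48 h, beside 5.99% of all genes lower and 8.02% higher at 24 h and 7.38% lower at 48 h. Nexn, Vcl and Fhl2, which were among the 4, are also among the MRTF and SRF targets counted before. Nexn and the small heat shock protein gene Hspb6 were lower at both times, Hspb6 by 1.03 and 0.66 log2 units, and Vcl, which encodes the adhesion protein vinculin, was lower at 24 h (-0.80, adjusted p = 0.0318). Of 15 tested nonmuscle actin, myosin, tropomyosin and actin-turnover genes, 0 passed the adjusted p at either time. The median of their log2 fold changes was -0.16 at the earlier and -0.054 at the later time, and Actb, Myh9, Tpm3 and Tpm4 lay between -0.20 and 0.18 at both times. The largest changes of the list were those of Myl6 at 24 h, -0.39, and of Cfl2 at 48 h, -0.47.

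For the signals upstream, 3 of 23 tested genes of RhoA, ROCK and myosin phosphatase were downregulated at both times, as were 4.04% of all genes, and 0 upregulated. Rnd3, an atypical small GTPase that inhibits ROCK signaling, fell by 1.49 and 1.21, the formin gene Diaph3 (Diap3 in the files) by 0.94 and 1.1, and Ppp1cb, the catalytic subunit of myosin phosphatase, by 0.44 and 0.45 in log2 units. Rhoa, Rock1 and Rock2 did not pass the test. Among 20 genes of the TGF-beta pathway, 2 were higher and 3 lower at 24 h, and 2 were higher and 2 lower at 48 h, where the shares of all genes were 8.02% higher and 5.99% lower, and then 6.58% higher and 7.38% lower. The ligands moved in opposite directions: Tgfb2 fell from -0.73 and -0.93 in unstimulated cells to -2.74 and -2.44 at 24 h and -2.63 and -2.72 at 48 h, whereas Tgfb1 rose by 1.53 ± 0.14 at 24 h (adjusted p = 0.00470) and 1.73 ± 0.14 at 48 h (adjusted p = 0.00314). The log2 fold change of Tgfb2 was -1.76 ± 0.15 (adjusted p = 0.00423) and -1.84 ± 0.15 (adjusted p = 0.00337). Tgif1, a repressor of SMAD-driven transcription, rose by 1.47 and 1.30.

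Markers of other cell types were measured beside the contractile genes. Of 10 tested among 12 fibroblast and myofibroblast markers, 5 were lower and 2 higher at 24 h, and 4 were lower and 1 higher at 48 h. Of all genes tested, 5.99% were lower and 8.02% higher at 24 h, and 7.38% lower and 6.58% higher at 48 h. Pdgfrb, a growth factor receptor of mesenchymal cells, changed by -1.91 and -1.12 and the collagen gene Col1a2 by -1.44 and -1.23, whereas Dcn, which encodes the proteoglycan decorin, rose by 2.08 and 2.78, and Pdgfra, the related receptor gene, rose at 24 h by 1.33 (adjusted p = 0.0178). Summed signals of markers are given without scaling between arrays, whose 75th percentiles ran from 550 to 611. The summed signal of the 12 fibroblast probes was between 526187 and 595748 in unstimulated cells, 362311 and 385513 at 24 h and 368412 and 387314 at 48 h, with Fap and Lum at background on all arrays. This sum was lower on every stimulated array than on both unstimulated ones, although single markers went either way, and its part in the decrease of the contractile genes was not tested. The summed signal of the 8 defining smooth muscle markers, nearly all of it from Smtn, ran from 46491 to 52888 in unstimulated cells, from 49140 to 53002 at 24 h and from 47742 to 62425 at 48 h, and Cnn1 was the only one of them, among the 4 tested, that passed the test.

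The striated muscle markers Actc1, Myh1, Myod1, Myog and Myf5, the pericyte markers Abcc9 and Kcnj8 and the macrophage marker Lyz2 were at background on all arrays. Other markers of the same lists, such as Tnnt2, Mcam and Kdr, were well above background on all 6 arrays. This held for 7 of 16 striated muscle, 6 of 11 pericyte and endothelial and 5 of 11 macrophage markers. Among 9 tested of 16 striated muscle markers, 2 were higher at 24 h (8.02% of all genes) and 1 lower at 48 h (7.38% of all genes). The latter was Acta1, the skeletal muscle actin, at -0.85 and -0.31 in unstimulated cells, -1.66 and -0.75 at 24 h and -2.30 and -2.48 at 48 h, with a log2 fold change of -1.81 ± 0.34 at 48 h (adjusted p = 0.0294). Myh3, the embryonic myosin heavy chain, was at background in unstimulated cells and at least 2.37-fold higher at 24 h (adjusted p = 0.00938). Of 8 tested of 11 pericyte and endothelial markers, Cdh5, the cadherin of endothelial junctions, rose by 3.87 and 3.97 in log2 units (well above background on 5 of 6 arrays), and Vwf rose at 24 h by 0.93, with 0 markers lower. Of 7 tested of 11 macrophage markers, the mannose receptor gene Mrc1 rose by 4.27 and 3.56 and Cd14 by 0.87 and 0.69, and of 9 tested of 13 prostate epithelial markers Krt8, a luminal keratin, rose at 48 h by 1.98. Beside these lists, 8.02% of all genes tested were higher at 24 h and 6.58% at 48 h. The summed signal of the prostate markers, most of it from Trp63, was between 8817 and 9814 in unstimulated cells, 7409 and 8081 at 24 h and 8651 and 9050 at 48 h. That of the 11 macrophage markers was between 24486 and 24644, then 19786 and 23155, and 15986 and 19740 at 48 h. Most of it came from Itgam, whose log2 fold changes of -0.43 and -0.65 did not pass the test (adjusted p = 0.264 and 0.120).

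**Figure D5:**
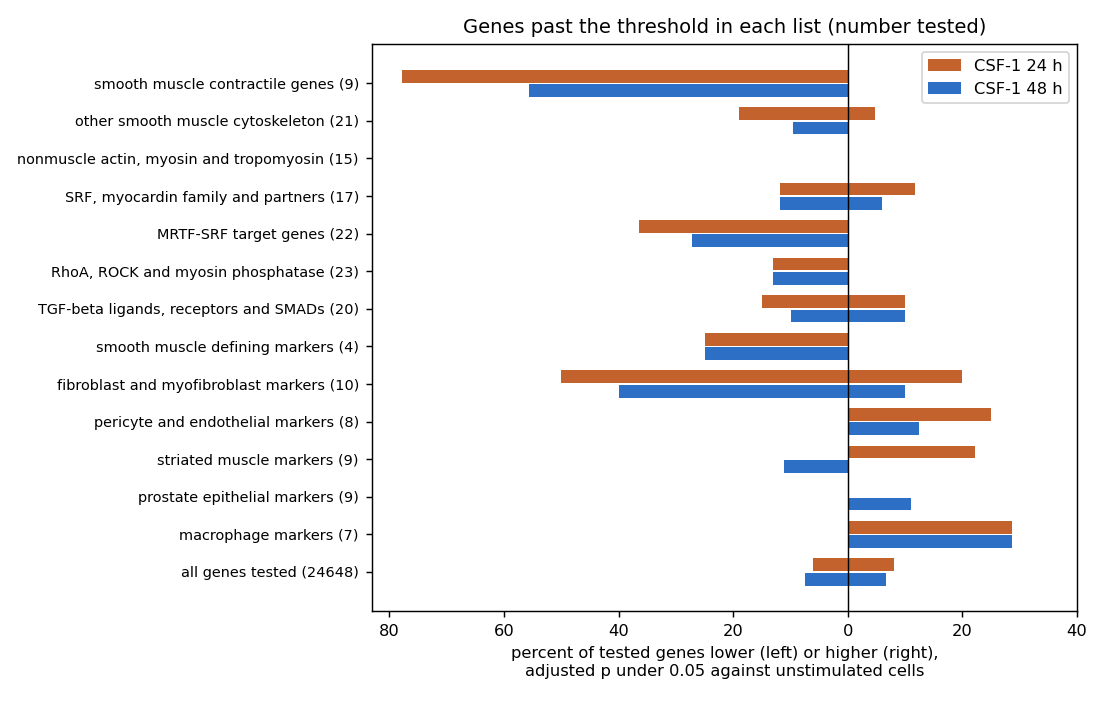
Percent of the tested genes of each list that were lower (left of 0) or higher (right of 0) than in unstimulated cells at an adjusted p under 0.05, with the number tested in parentheses. Of the 9 contractile genes, 7 at 24 h and 5 at 48 h were lower, whereas 0 of 15 nonmuscle actin, myosin and tropomyosin genes passed the threshold.

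The counts of contractile genes depended on single arrays. Without unstimulated replicate 1, 3 genes passed at 24 h and 2 at 48 h, and without unstimulated replicate 2, 1 and 1. At 24 h, 3 passed without 24 h replicate 1, the array on the other slide, and 4 without 24 h replicate 2, without 48 h replicate 1 or without 48 h replicate 2. At 48 h, 5 passed without either 24 h array, 2 without 48 h replicate 1 and 3 without 48 h replicate 2. The slide as a block gave the same fit as leaving out 24 h replicate 1, since no other array lay on that slide. Cnn1 was the only member that passed with each array left out in turn, at 24 h and at 48 h alike, with log2 fold changes between -3.11 and -2.89 at 24 h and between -3.46 and -2.73 at 48 h, all without the normexp background correction that brought it to -1.70 and -1.79.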

How the data were processed

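Total RNA of 6 cultures was hybridized to SurePrint G3 mouse arrays by a company, and the spots were quantified with Agilent Feature Extraction 11.0.1. The authors deposited the background-subtracted and detrended signal intensity of each spot, not normalized between arrays, with mean and local background intensity and flags, as annotated on mm9. A table of log2 values with 44569 rows was deposited too. Its normalization is not given in the sources used here. Set against the log2 signal, differences between arrays were within 0.05 for 99.8% of values once a constant per array was removed. Their probe-wise centring stays unknown, and the table served as an alternative.

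Here, spots flagged as feature outliers were left out, so that 303 probes and the only probes of 135 genes dropped out, and log2 signals, less the array's 75th percentile, were averaged per probe. The brightest probe stood for each gene, and every gene above background, by the flag of the software, on each array of 1 or more groups was tested with limma 3.58.1 under R 4.3.3 (lmFit, eBayes, 2-sided, all 6 arrays in 1 fit, 3 residual and 2.39 prior degrees of freedom). An exact permutation test of 2 against 2 arrays cannot go below p = 0.333, and the number of arrays limits the precision. Names were looked up in RefSeq (13853 of the tested genes matched a symbol, 1577 an accession, 202 a synonym) and otherwise kept as in the files. No mm9 gene models were used, so exons and untranslated regions were not assigned to probes. The procedures were tested on simulated data. The genes and lists were chosen with earlier results of these data known. All probes of the 10 genes are covered. From each list, the 3 genes other than the contractile genes with the largest mean absolute log2 fold change were named, among those passing at both times or, where these were fewer than 3, at either time. Some genes of the marker lists are not reported here. For Acta2 and Tagln, the 5 most correlated genes were named. Alternatives were other scalings and background correction (normexp with an offset of 50), other filters, the mean of probes, blocks for replicate number and slide, arrays left out in turn, and the methods' t-test. After seeing the data, tests of every probe, diffSplice and a stricter spot filter were added; leaving out spots with background outlier flags too, as first done, gave the same 7 and 5 genes.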

Additional observations from a re-analysis of the deposited data

How the results depend on the processing

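At 24 h and 48 h, every tested contractile gene kept a lower mean than in unstimulated cells under every alternative with 1 value per gene, Myh11 excepted, which entered only without the filter on dim probes and was higher at 24 h. With each probe on its own, the overlapping Tpm1 probes were higher at both times. Normexp background correction with its offset of 50 lowered the size of the Cnn1 change to -1.70 at 24 h and -1.79 at 48 h. The counts of 7 genes at 24 h, 5 at 48 h and 0 between the times moved as follows. Normexp background correction gave 8 at 48 h and 1 between the times, and no filter on dim probes gave 3 and 2. Quantile normalization gave 6 at 24 h, and median centring 8 and 6. The mean of probes gave 6 and 4, with Tpm1 lost at both times (adjusted p = 0.788 and 0.839 in limma). The slide as a block gave the same fit as leaving out 24 h replicate 1, and both are counted among the alternatives. The methods' t-test gave 0 and 0 after adjustment, and 2 at 24 h at an unadjusted p under 0.05 with a 2-fold change, whereas these thresholds in limma gave 1 between the times. With 1 array left out, the counts ranged from 1 to 4 at 24 h and from 1 to 5 at 48 h, with 0 between the times. With the replicate number as a block, 8 genes passed at 24 h and 6 at 48 h, with Actg2 added (adjusted p = 0.0466 and 0.0147). The labels do not say that the numbers pair the samples, and the correlations of replicate differences between groups were 0.128, 0.0941 and 0.199. Between 48 h and 24 h, the log2 fold change turned sign for Cnn1 (0.29 with quantile normalization, 0.088 with median centring, -0.46 to 0.27 with 1 array left out), Cald1 (0.10 with median centring, -0.18 to 0.023 with 1 array left out) and Myl9 (0.031 with median centring, -0.64 to 0.34 with 1 array left out). Median centring moved the median of all genes to -0.25 at 24 h and -0.14 at 48 h, from 0.037 and -0.044. Causes of these shifts were not tested. Of all alternatives for single genes, 372 kept their direction and side of the threshold, 64 lost the call, 12 gained it and 8 turned sign.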
